A study of Mus musculus with 5 samples.

Results

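Intercalated cells of the kidney collecting duct and connecting tubule were examined in droplet single-cell RNA profiles. Members were chosen by UMIs (unique molecular identifiers, counted RNA molecules) of marker genes. A barcode of at least 200 genes, and of less than 50% mitochondrial UMIs, was an intercalated cell when it had at least 2 UMIs of Atp6v1g3 and Atp6v0d2, subunits of the proton pump. It also needed at least 1 UMI of Foxi1, Spink8, Hmx2 or Atp6v1c2, no UMI of the leukocyte gene Ptprc and fewer than 2 UMIs of Slc12a3 and Slc12a1, the salt cotransporters of the distal convoluted tubule and thick ascending limb. This left 670 cells out of 22591 barcodes that met the limits on genes and mitochondrial UMIs, called kept barcodes, and out of 26237 barcodes in all. The libraries contributed 146 (Saline 1), 143 (Saline 2), 108 (FMT 1), 86 (FMT 2) and 187 (FMT 3) of them. Because measured values of these genes chose the cells, their levels are given as a description without a test.

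The kidneys came from C57BL/6j mice with lupus induced by pristane, a hydrocarbon oil that sets off autoimmunity, and all groups carried that disease. Saline was given to the group of 2 libraries, and gut microbiota of MRL/MpJ mice, by faecal transplant (FMT), to the group of 3. The labels give no age, sex or time after treatment, do not say that each library is a separate animal, and name tubular epithelial cells and B cells as the material collected, so p-values measure the spread between these 5 libraries. Letter codes in the sample titles, B for each FMT library and C or D for saline, follow the treatment, and no label explains them.

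Intercalated cells are the acid-base cells of the distal nephron. Their vacuolar proton pump (V-ATPase) has a V1 part that splits ATP and a V0 part that carries protons through the membrane, and cytosolic carbonic anhydrase supplies it with protons. Type A cells pump acid into the urine and return bicarbonate to the blood through Slc4a1 (the anion exchanger AE1). Type B cells work in the reverse direction, with Slc26a4 (pendrin) releasing bicarbonate into the urine and Slc4a9 (AE4) on the opposite face. The forkhead transcription factor Foxi1 is required for the intercalated fate and for expression of pump subunits and anion exchangers.

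Upstream sequence of the genes that define these cells is shown to place them in the genome, since Foxi1 belongs to a family that reads TGTTTAC-like letters. The letters TGTTTAC, the second form TGTTTGC and the third form TGTTTGT were searched on both strands in the 250 bases before each transcription start, from RefSeq on GRCm38.p6. Of 28 genes looked up, 18 matched an entry and 2 of these (11.1%) held a match in this window. Counted by transcription start, 2 of 22 (9.09%) did, against 12.4% of all 32851 promoters of that length. The 2 genes were Atp6v1g3 and Atp6v1b1, both V1 subunit genes restricted to few tissues. The 250 bases before Atp6v1g3 (chr1:138273488-138273737, plus strand) and Atp6v1b1 (chr6:83742767-83743016, plus strand) are printed with the match in capitals. The type B gene Slc26a4 (chr12:31559985-31560234, minus strand) and the type A gene Aqp6 (chr15:99600950-99601199, plus strand), on which the typing rests, held none of these letters. In Atp6v1g3 the match was TGTTTGT on the reverse strand, 67 bases before the start, and in Atp6v1b1 it was TGTTTAC, 98 bases before it. A match describes the letters alone.
Atp6v1g3: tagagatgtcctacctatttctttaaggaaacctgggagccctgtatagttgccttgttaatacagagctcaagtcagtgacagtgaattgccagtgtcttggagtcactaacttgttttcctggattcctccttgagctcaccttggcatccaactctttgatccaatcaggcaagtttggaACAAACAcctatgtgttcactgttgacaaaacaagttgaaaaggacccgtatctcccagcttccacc
Atp6v1b1: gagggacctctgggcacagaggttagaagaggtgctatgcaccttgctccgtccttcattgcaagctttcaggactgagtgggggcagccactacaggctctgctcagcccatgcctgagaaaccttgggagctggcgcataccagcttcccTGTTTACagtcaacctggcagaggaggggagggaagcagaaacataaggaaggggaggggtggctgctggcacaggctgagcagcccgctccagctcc
Slc26a4: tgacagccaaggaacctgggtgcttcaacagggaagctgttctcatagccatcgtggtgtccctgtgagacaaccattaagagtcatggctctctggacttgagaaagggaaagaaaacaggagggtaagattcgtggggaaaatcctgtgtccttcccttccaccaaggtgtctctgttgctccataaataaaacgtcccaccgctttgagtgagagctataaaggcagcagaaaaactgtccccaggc
Aqp6: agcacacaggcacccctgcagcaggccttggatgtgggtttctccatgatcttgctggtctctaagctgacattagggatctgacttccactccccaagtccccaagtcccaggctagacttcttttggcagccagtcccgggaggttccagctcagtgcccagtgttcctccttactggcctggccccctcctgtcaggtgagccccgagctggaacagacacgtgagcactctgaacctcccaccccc

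The libraries held 15333445 to 45309178 UMIs, and the intercalated cells were shallow, with library medians from 1296 to 2233 UMIs against 3329.5 to 5093 in kept barcodes. No barcode sequence of an intercalated cell was shared with an intercalated cell of another library, and 1 was shared with another kept barcode. Of the 670 cells, 17 were among the 883 barcodes with the highest doublet scores, and 43 carried at least 5 UMIs of proximal tubule or of immune marker genes. Single cells weighed on a few genes: 1 cell of FMT 2 held 2461 Jchain UMIs of the 2466 in that library's intercalated cells, and 1 cell of Saline 1 held 475 of its 804 Hba-a1 UMIs.

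The cells carried the markers of the label that the selection had not used. Car2, the cytosolic carbonic anhydrase, was detected in 96.7% of them. Its level was 2720, 4211, 3197, 3778 and 4605 CPM (UMIs scaled to all UMIs of the intercalated cells of a library, here in the order Saline 1 and 2 and FMT 1 to 3), against medians over libraries of 63.0 CPM in distal convoluted and 559 CPM in proximal tubule cells. Atp6v1b1, the B subunit of the specialised pump, ran from 367 to 515 CPM against 101 and 0.74 CPM in those classes. Tfcp2l1 (a transcription factor of the collecting duct), Car12 and Car15 (membrane carbonic anhydrases) and Atp6v0a4 were also above distal convoluted cells in all 5 libraries, whereas the ammonia channel Rhcg was above them in 3. Slc26a7, a further anion exchanger of type A cells, was listed at 0 in the intercalated, distal convoluted, thick ascending limb and proximal tubule cells.

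Some markers of other cell types were low or at 0, and those of proximal tubule, red blood cells and plasma cells were high in some or all libraries. The principal cell water channel Aqp2 was at 0 in all 5 libraries, as were Pvalb and Trpm6 of the distal convoluted tubule, and the 10 principal cell genes summed to 130 to 234 CPM. The 10 immune genes summed to 95.3 to 394 CPM, with 2 of the 10, Ptprc (fixed at 0 by the selection) and Cd68, at 0, and the 6 endothelial genes to at most 2.91 CPM. The 17 proximal tubule genes summed to 9113 and 11930 CPM in the saline libraries and to 15769, 11287 and 8451 CPM in the FMT libraries, with none of the 17 at 0. In distal convoluted cells they summed to 2171 to 8489 CPM, and in proximal tubule cells to 37980 to 55538 CPM. The 6 erythroid genes summed to 7447 CPM in Saline 1 (Hbb-bs 2992, Hba-a1 2401 and Hba-a2 1535 CPM) and to 5.82 to 898 CPM in the other libraries. Jchain, of antibody-secreting cells, had 8847 CPM in FMT 2, nearly all from the 1 cell above, and 11.9 to 72.8 CPM elsewhere. The part of these signals in the results below was not tested.

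Near the limits of the selection, the 15 members with 2 or 3 pump UMIs had a median of 799 UMIs and Car2 in 80% of cells, and all members had a median of 21 pump UMIs. Just outside it, 37 barcodes had 1 pump UMI together with a gene of the second set, with a median of 4341 UMIs per cell. A further 268 had at least 2 pump UMIs and no gene of the second set, and 72.4% of them had Car2.

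Most subunits of the V1 part were above distal convoluted cells. Atp6v1g3, the kidney form of the G subunit of V1 (ENSMUSG00000026394, mm10 chromosome 1, 138273738 to 138289462), had 10325, 13966, 9527, 10458 and 10984 CPM, and Atp6v0d2 (chromosome 4, 19876841 to 19922605), a V0 subunit with the same restricted expression, had 600.2, 1074, 795, 904 and 931 CPM. Both had been used to choose the cells, and distal convoluted cells had to have fewer than 2 UMIs of them, so that class was cleared of pump-rich cells. Among subunits the selection did not use, Atp6v1a, the catalytic A subunit, had 1164, 1297, 1246, 1026 and 1301 CPM, all above its median of 261 CPM in distal convoluted cells. Atp6v1e1, a stalk subunit, had 2131 to 3166 CPM against 514 CPM, and Atp6v1d, the central rotor, 780 to 1099 CPM against 203 CPM. The widely expressed isoforms stood closer together: Atp6v1b2 had 105 to 133 CPM against 78.6 CPM, and Atp6v0d1 had 71.7 to 130 CPM against 86.6 CPM. Without the genes of the selection and with a median of at least 50 CPM in either class, 8 of 9 V1 subunits and 3 of 6 V0 and accessory subunits were higher than in distal convoluted cells in all 5 libraries, and none was lower in all 5. Over all 3465 such genes, 27.4% were higher and 30.4% lower in all 5. The median log2 ratio of CPM + 10 was 1.90 for V1 subunits, 0.94 for V0 and accessory subunits and -0.01 over all genes.

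Transport genes divided between those above and those below distal convoluted cells. Of 13 acid-base transport genes at that level, 7 were higher and 3 lower in all 5 libraries. Rhbg, a basolateral ammonia channel, had 143, 230, 344, 187 and 48.2 CPM against a median of 3.25 CPM, and its FMT 3 value was the lowest. The gastric proton pump Atp4a was below distal convoluted cells in every library, with 3.01 to 20.4 CPM against 108 CPM. The antimicrobial peptide Defb1 had 419 to 723 CPM against 3312 CPM, and Oxgr1, the receptor for 2-oxoglutarate on these cells, had 111 to 227 CPM against 13.3 CPM. Immediate early genes were lower in all 5 libraries for 9 of 11, and higher for none.

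Against all other kept cells, 53 of 2718 genes (1.95%) were at least 4 times higher in every library. Sult2a3, a sulfotransferase, had the largest lowest ratio over the libraries, with 809, 996, 524, 1245 and 599 CPM against a median of 3.66 CPM in other cells. Ckmt1, a mitochondrial creatine kinase, had 502 to 877 CPM against 10.5 CPM in other cells and 132 CPM in distal convoluted cells. Rcan2, an inhibitor of calcineurin, had 188 to 337 CPM and 0 CPM in the median distal convoluted library, and Syn2, a synapsin known from nerve terminals, had 164 to 227 CPM against 1.55 CPM in other cells. Tmem213 had 1911 to 2920 CPM, but also 1341 CPM in distal convoluted cells, and lies inside the span of Atp6v0a4 on the opposite strand. The other genes of the leading 15 were Atp6v1b1, Smim5, Tmem61, Ociad2, the phosphodiesterase Pde1a, the mitochondrial calcium-binding protein Efhd1, Oxgr1, Exoc3l4, Cpsf4l and the granzyme B inhibitor Serpinb9. Their medians lay between 86.1 CPM (Cpsf4l) and 483 CPM (Atp6v1b1). Stap1 and Blnk, signalling adaptors best known from B cells, had 206 to 282 CPM and 71.7 to 169 CPM in these Ptprc-negative cells. They were chosen after their values were seen.

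Most intercalated cells held almost no mitochondrial RNA. Under 1% of UMIs came from the mitochondrial genome in 80.1% and 68.5% of the intercalated cells of the saline libraries and in 53.7%, 77.9% and 85.6% of those of the FMT libraries, 500 of 670 in all. In distal convoluted cells these shares were 30.5%, 14.7%, 9.01%, 46.2% and 19.5%, and in proximal tubule cells 10.4%, 9.15%, 6.80%, 19.4% and 17.2%. The 123 principal cells (at least 2 UMIs of Aqp2 and Aqp3) had 27.8%, 20%, 31.8%, 69.2% and 12.5%. In FMT 2 they thus came close to the intercalated 77.9%. The 100 thick ascending limb cells had 42.9%, 10.7%, 6.90%, 33.3% and 0%. Both classes were small, with 10 to 39 and 7 to 29 cells per library. The intercalated share was the higher in every library, by 49.2 ± 12.6 percentage points (SD, n = 5 libraries) over distal convoluted cells and by 60.6 ± 9.19 over proximal tubule cells. These values set members against other cells, as the selection did, and are given without a test. The 1% limit was chosen after the values were seen, and with 0.5% or 2% in its place the difference from distal convoluted cells was 46.8 or 33.4 points. The summed mitochondrial level of all intercalated cells was still 21632 to 80775 CPM, above that of distal convoluted cells in 4 libraries, and it came from the minority of mitochondria-rich cells.

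**Figure D1:**
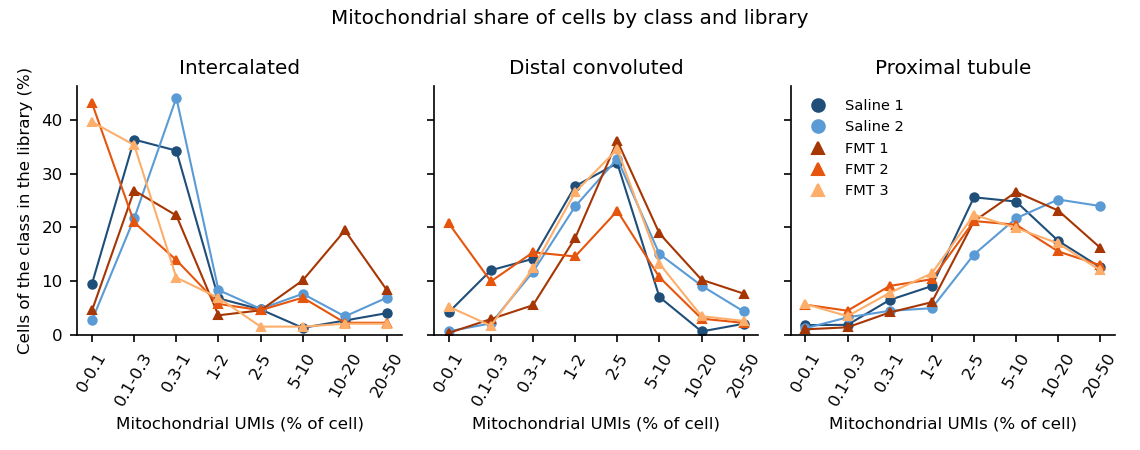
Share of cells (%) in each bin of mitochondrial UMIs (% of the cell's UMIs) for intercalated, distal convoluted and proximal tubule cells, with 1 line per library. Intercalated cells pile up under 1%, between 53.7% and 85.6% of them per library, while proximal tubule cells lie mostly above it.

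Cells under and over the 1% limit differed in more than mitochondrial RNA. The nuclear RNA Malat1 had 5456, 3046, 3499, 4888 and 3330 CPM in the mitochondria-poor cells and 41516, 36011, 13701, 23729 and 37571 CPM in the others, with no overlap. Neat1, a further RNA held in the nucleus, was also lower in mitochondria-poor cells in all 5 libraries, with a median log2 ratio of -1.99. For Malat1 the median ratio was -2.93 in intercalated cells, -0.44 in distal convoluted and -1.09 in proximal tubule cells split at the same limit. The mitochondria-poor cells were shallower, with a median of 1421.5 UMIs against 3544, and held fewer genes, 802.5 against 1358.5.

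The V1 and the V0 and accessory subunits differed in their counts across this split. A cell needed a minimum of UMIs of the selection genes, which weighs more on the CPM of a shallow cell, and the mitochondria-poor cells were the shallower ones, so values of those genes are not read here. Of the 9 V1 subunits outside the selection with a median of at least 50 CPM on either side, 5 were higher in mitochondria-poor cells in all 5 libraries and 0 were lower, against 29.0% higher and 12.4% lower over 3198 genes. Atp6v1e1 had a median of 3099 CPM in these cells and 1773 CPM in the others, Atp6v1d 1194 against 586 CPM and Atp6v1f 2614 against 1646 CPM. Of 6 V0 and accessory subunits outside the selection, 3 were lower and 0 higher: Atp6v0a4 had 233 against 693 CPM, and the accessory subunits Atp6ap1 and Atp6ap2 had 50.3 against 152 CPM and 119 against 304 CPM. Among 12 acid-base transport genes, 5 were lower and 1 was higher. Car12 had 41.3 against 251 CPM, Rhcg 50.5 against 222 CPM and Rhbg 82.7 against 256 CPM, whereas the cytosolic Car2 had 4263 against 2762 CPM. The secreted phosphoprotein Spp1 (289 against 2123 CPM) was lower in all 5, as was the lysosomal saposin precursor Psap (32.7 against 282 CPM). Nuclear genes of the respiratory chain were higher for 23 of 40 and lower for 1. Over all genes the median log2 ratio was 0.25, against 0.31 for V1 subunits and -0.43 for V0 and accessory subunits outside the selection, and -1.20 for acid-base transport genes. Of 15 proximal tubule genes, 10 were lower in mitochondria-poor cells and 0 higher, and the part of that signal in these ratios was not tested.

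**Figure D2:**
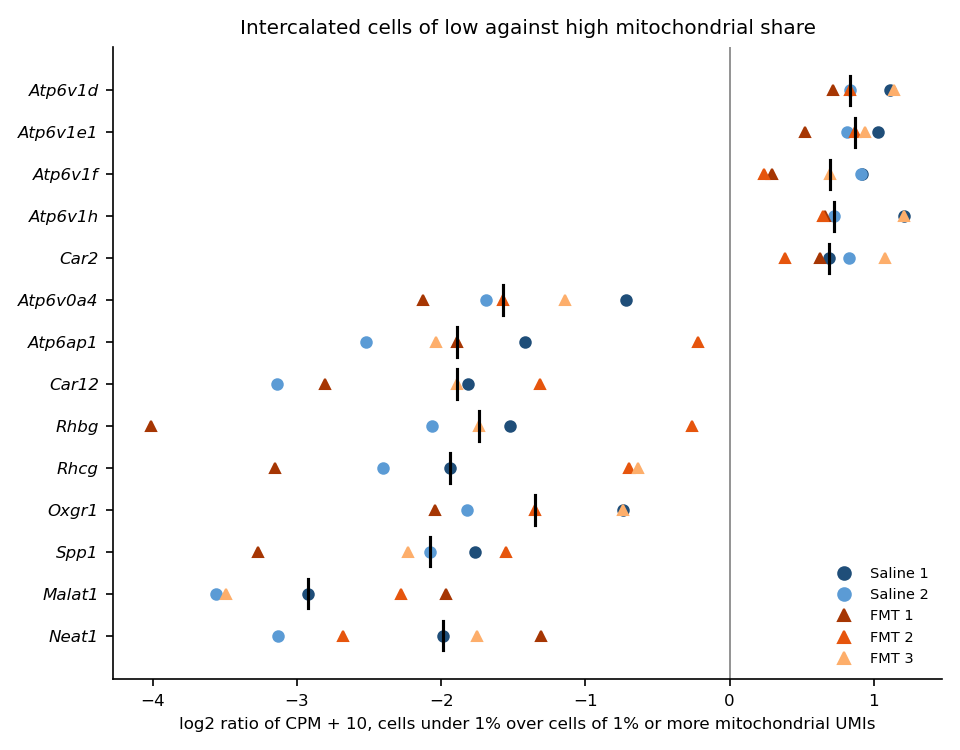
Log2 ratio of CPM + 10 between intercalated cells under 1% and of 1% or more mitochondrial UMIs, for single genes, with 1 point per library and the median as a bar. Atp6v1e1 and Car2 lie to the right of 0, and Atp6v0a4, Atp6ap1, the ammonia channels and Malat1 to the left in all 5 libraries. Genes of the selection are not drawn.

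Typing genes were sparse. Slc26a4 was detected in 18.1% of intercalated cells, Hmx2 in 32.5%, Insrr (the insulin receptor-related receptor, a sensor of alkaline pH) in 14.6% and Slc4a9 in 14.5%. The type A genes Slc4a1 and Aqp6, an anion-conducting aquaporin of intracellular vesicles, were detected in 4.93% and 7.46%. In proximal tubule cells, which should lack these genes, 0.029% to 0.286% of cells had a UMI of any of the 6 at a median of 5563 UMIs, against 1567.5 UMIs in intercalated cells. After thinning each cell to 1000 UMIs, which left 503 intercalated cells, the shares were 13.3% for Slc26a4, 22.1% for Hmx2, 3.18% for Slc4a1 and 4.17% for Aqp6. Levels varied widely between libraries. Slc26a4 (chromosome 12, 31519827 to 31559969) had 50.8 and 648 CPM in the saline libraries and 483, 538 and 63.3 CPM in the FMT libraries, so Saline 1 and FMT 3 were low and the groups overlapped. Insrr had 20.9, 316, 137, 208 and 54.2 CPM and Slc4a9 26.9, 152, 139.8, 133 and 42.2 CPM, low in the same libraries. Slc4a1 (chromosome 11, 102348824 to 102366203) had 119, 23.8, 160.1, 7.18 and 18.1 CPM, with a different order. Hmx2 did not follow Slc26a4: it had 358, 309.7, 157, 265 and 151 CPM.

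**Figure D3:**
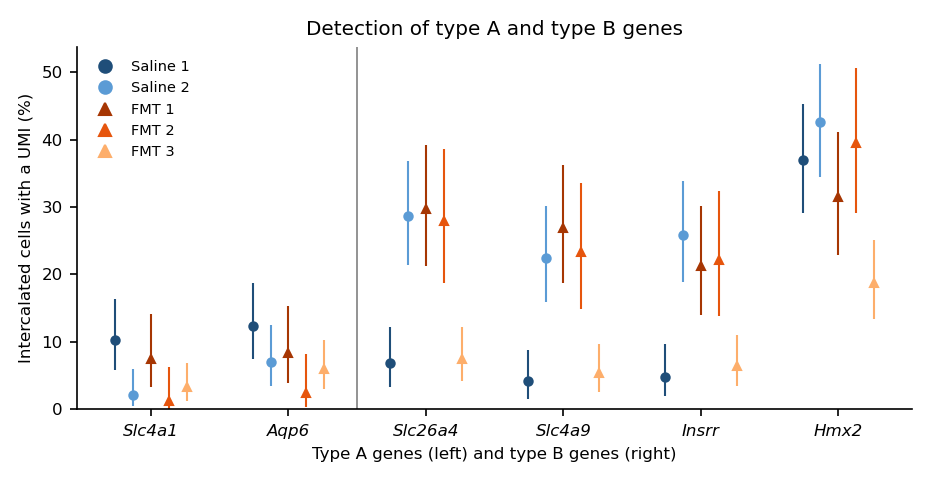
Share of intercalated cells (%) with a UMI of the type A genes Slc4a1 and Aqp6 and the type B genes Slc26a4, Slc4a9, Insrr and Hmx2, with 1 point per library and its exact 95% binomial interval, which covers counting error only. Slc26a4 was found in 6.85% of cells in Saline 1 and 7.49% in FMT 3 and in 27.9% to 29.6% in the other libraries.

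Typing genes of the opposite types shared few cells, and not all pairs fell below the product of their shares. Slc4a1 was seen in 33 cells and Slc26a4 in 121, and 0 cells had both, where the product of their shares gives 5.96. Insrr was in 0 of the 33 Slc4a1 cells, where the product gives 4.83. Slc4a9 was in 6 of those 33 cells (product 4.78), and Aqp6 was with Slc26a4 in 8 cells (9.03) and with Insrr in 7 (7.31), so these pairs were near the product. Aqp6 was with Slc4a9 in 11 cells, above the product of 7.24. Hmx2 shared 2 cells with Slc4a1 (10.7) and 6 with Aqp6 (16.3), below it. Within a type, Slc4a1 and Aqp6 were together in 24 cells (2.46) and Slc26a4 and Slc4a9 in 59 (17.5). Kit, a receptor kinase, was in 16 cells, of which 11 had Slc4a1 and 0 had Slc26a4. Cells were called type A with a UMI of Slc4a1 or Aqp6 and type B with a UMI of Slc26a4, Slc4a9, Insrr or Hmx2. This gave 42 type A cells, 301 type B, 17 with genes of both and 310 with neither. The untyped cells were shallower, at a median of 1199 UMIs against 1962 in type A and 1947 in type B, and cells with genes of both types were deeper, at 5640. Type A cells numbered 21 and 3 in the saline libraries and 6, 1 and 11 in the FMT libraries, and type B cells 58 and 82, and 60, 51 and 50. Hmx2 alone typed 123 of the 301 type B cells (40.9%), and 67.2% of those in Saline 1. Detection of Slc26a4 also differed with the mitochondrial limit: 49 of the 500 mitochondria-poor cells and 72 of the 170 others had it, pooled over libraries. Saline 1 went the other way, with 9 of 117 against 1 of 29 cells. The mitochondria-poor cells were also shallower, at a median of 1421.5 against 3544 UMIs.

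Type A and type B cells could be compared within Saline 1 and FMT 3, which had at least 10 of each, and pooled over the 5 libraries. The typing genes were left out, and because measured values made the split, levels are described without a test. Of 1828 genes, 84 (4.60%) were at least 2 times higher pooled in type A and 60 (3.28%) in type B, each with the same direction in both libraries. In FMT 3, with 11 type A cells, a single type A UMI gave 59.2 CPM, so the direction there can rest on a single UMI. Dmrt2, a transcription factor, had 214 CPM in type A and 1.04 CPM in type B cells pooled, from 12 cells. The small heat shock protein Cryab had 344 against 10.4 CPM, and the brain creatine kinase Ckb the same 344 against 13.6 CPM. Defb1 had 2018 against 352 CPM, with 2242 against 410.3 CPM in Saline 1 and 2072 against 160 CPM in FMT 3. Nupr1, Smco4, the adhesion receptor Adgrf5, Pdlim3, the immunoproteasome subunit Psmb8 and Cd24a were also higher in type A, each from 5 to 9 cells, and for Psmb8 70% of the UMIs came from 1 cell. These 10 genes rest on 42 cells, and in FMT 3 Nupr1, Adgrf5, Pdlim3 and Psmb8 each had 59.2 CPM in type A.

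In type B cells Sult2a3 had 1057 CPM against 18.6 CPM in type A, with 1708 against 21.4 CPM in Saline 1 and 782 against 59.2 CPM, a single UMI, in FMT 3. Sult2a3, the leading gene of intercalated cells against other cells, was thus carried by type B cells among those typed. Igfbp5, which binds insulin-like growth factors, had 228 CPM from 81 cells, and the coat protein gene Copz2 126 CPM, also from 81 cells, and both were at 0 UMIs in type A cells. Nudt4, a diphosphoinositol polyphosphate hydrolase, had 610.2 against 83.7 CPM, Fam107b 153 against 18.6 CPM and Sec11c, a signal peptidase subunit, 145 against 18.6 CPM. For Mzb1 and Slpi, 97.4% and 93.3% of the type B UMIs came from 1 cell, and for Hba-a1 and Hba-a2 75.6% and 74.8%. Pump subunits differed in how close the types were. Pooled levels in type A and type B were 512 and 480 CPM for Atp6v1b1 and 2521 and 2492 CPM for Atp6v1e1, but 167 and 298 CPM for Atp6ap2 and 595 and 813 CPM for Atp6v0e. Atp6ap2 and Atp6v0e were lower in type A in both libraries. In FMT 3, though, Atp6ap2 had 59.2 CPM in type A, a single UMI, and the log2 ratio for Atp6v0e was -0.04. The carbonic anhydrase Car2 had 3879 and 3817 CPM. Spink8, a protease inhibitor used in the selection, had 167 against 754 CPM, and Rhbg 465 against 177 CPM.

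**Figure D4:**
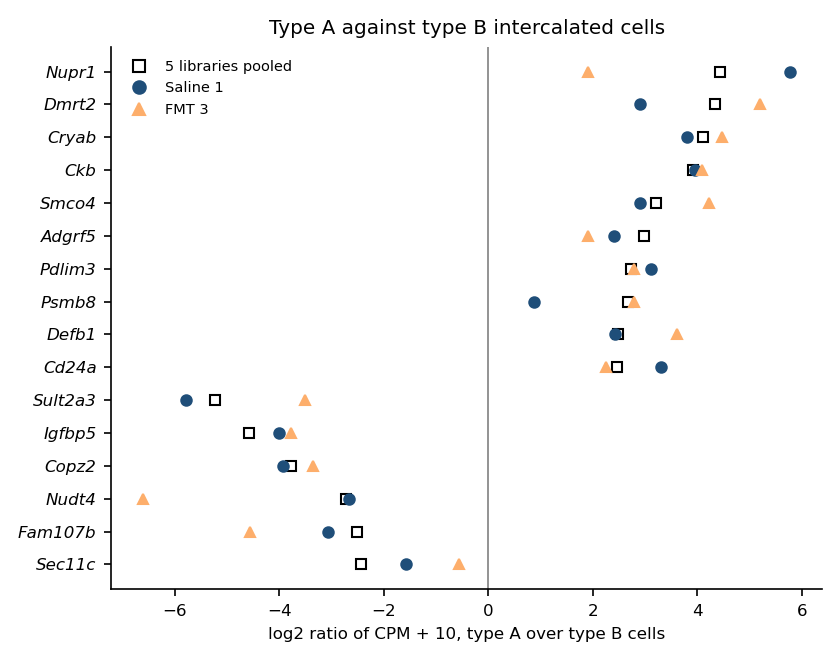
Log2 ratio of CPM + 10, type A over type B intercalated cells, pooled over 5 libraries (open squares) and in Saline 1 and FMT 3, which had at least 10 cells of each type. Dmrt2, Cryab, Ckb and Defb1 lie on the type A side and Sult2a3, Igfbp5, Copz2 and Nudt4 on the type B side, and Mzb1, Slpi, Hba-a1 and Hba-a2, which rest mostly on 1 cell, are left out.

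The comparison of the study asks how the kidney differs between FMT and saline in this model. The selection did not use the treatment, but the levels of its own genes bear on which cells were chosen. Intercalated cells made up 2.79% and 4.37% of kept barcodes in the saline libraries (exact 95% binomial intervals 2.36% to 3.27% and 3.69% to 5.13%) and 1.71%, 1.75% and 6.54% in the FMT libraries (1.41% to 2.06%, 1.40% to 2.16% and 5.66% to 7.51%). The intervals cover counting error only. FMT 3 was the highest and FMT 1 and 2 the lowest, so the groups overlapped. The means were 3.58% ± 1.12 (SD, n = 2) and 3.34% ± 2.78 (SD, n = 3), with a two-sided exact permutation p of 1, where the smallest possible with 2 against 3 libraries is 0.1. With Ptprc-negative barcodes as the denominator the means were 5.34% and 4.23% (exact permutation p = 0.6), and among intercalated, distal convoluted and thick ascending limb cells 41.0% and 41.5% (exact permutation p = 1). A lower share of cells and less marker RNA per cell cannot be told apart, since marker UMIs choose the cells. Type B cells were 73.4% and 96.5% of the typed cells in saline and 90.9%, 98.1% and 82.0% in FMT libraries, with means of 84.9% ± 16.3 and 90.3% ± 8.07 (exact permutation p = 0.6). Hmx2 both chose and typed cells, so this share is not free of the selection. More genes could type a cell as B than as A, and 310 of the 670 cells had no typing gene. The share is therefore not read as the make-up of the tissue. Hmx2 alone typed 40.9% of all type B cells, 67.2% in Saline 1 and 29.3% in Saline 2. Over these 4 tests each adjusted p was 1.

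Counts summed over the intercalated cells of each library gave no gene that differed between FMT and saline. The edgeR quasi-likelihood test called 0 of 4757 genes (0%) at an adjusted p of 0.05, with 121 at an unadjusted p under 0.05, and DESeq2 called 0, with 37 under 0.05 and 1 adjusted p not given. The smallest adjusted p in edgeR was 0.999. On simulated counts for this comparison with 4757 genes, of which 200 changed, 0% of 2-fold and 73% of 4-fold changes were recovered. Differences of 2-fold were thus not detectable with these libraries. Depth and the number of libraries were not varied, so their parts cannot be told apart. Without the filter on low counts edgeR called 40 of 13462 genes, 17 higher and 23 lower, and with a replicate block it called 1, Jchain, whose UMIs came almost all from 1 cell of FMT 2.

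The genes with the smallest p-values are given as values, each with an adjusted p of 0.999 in edgeR. G6pc, the glucose-releasing phosphatase, had 35.8 and 43.3 CPM in saline and 84.4, 129 and 166 CPM in FMT libraries, a log2 difference of 1.60 (SE 0.34). The lipid droplet protein Plin2 had 35.8 and 43.3 against 87.3, 93.3 and 93.4 CPM (1.15, SE 0.30), and the aldo-keto reductase Akr1c21 155 and 71.5 against 486, 204 and 304 CPM (1.54, SE 0.44). Rnf187 and the Hsp90 co-chaperone Fkbp4 followed with log2 differences of 0.89 and 0.88. Among lower values, Malat1 had 18074 and 18568 CPM in saline and 10747, 13773 and 10036 CPM in FMT libraries, a log2 difference of -0.71 (SE 0.20). The kinase Sgk1, a target of aldosterone and glucocorticoids, had 179 and 54.1 against 37.9, 35.9 and 48.2 CPM, a log2 difference of -1.52 (SE 0.48), with Saline 1 far above the rest and a difference of -0.46 without it. Trp53inp2, an autophagy protein, and Dst, a cytoskeletal linker, had -1.19 and -1.02. In cells under 1% mitochondrial UMIs the differences were 4.12 for Akr1c21, 3.03 for G6pc, -0.14 for Malat1 and -0.38 for Sgk1. Without the 43 cells that carried proximal tubule or immune UMIs they were 0.41 for Plin2, -0.72 for Sgk1, 1.13 for Akr1c21 and -1.31 for Malat1, and G6pc gave no value. Beside Akr1c21 and G6pc, 12 of 16 proximal tubule genes were above 0 in the same comparison, among them Miox (0.95) and Slc34a1 (0.75), and their part was not tested. In distal convoluted and thick ascending limb cells Akr1c21 and Sgk1 had log2 differences of 1.32 and -1.59. The groups did not overlap for any of these 9 genes, as for 16.6% of all genes tested. Without the filter on low counts, 4 of the 9 passed: Akr1c21 (adjusted p = 0.00045 in edgeR), Malat1 (0.011), G6pc (0.015) and Sgk1 (0.024), and in no other alternative did any pass.

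**Figure D5:**
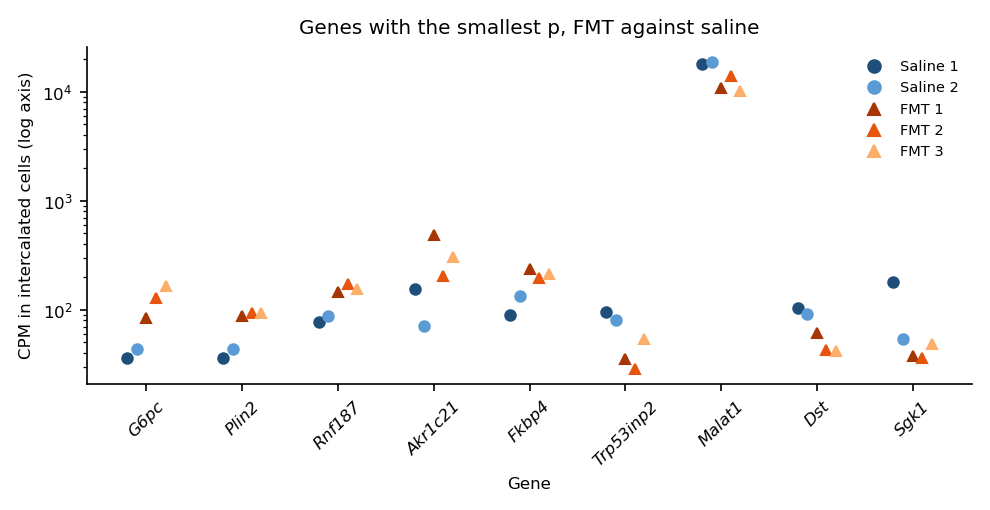
CPM in intercalated cells (log axis) of 9 genes with the smallest p-values between FMT and saline, with 1 point per library. The 3 FMT libraries lie on 1 side of both saline libraries for each gene, and none passed the adjusted threshold.

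Members of the pump and transport lists stood near the centre of all genes in this comparison. Of 18 V-ATPase genes tested, 11 were above and 7 below 0, with a median log2 difference of 0.03, and of 13 acid-base transport genes 9 and 4, with a median of 0.03. The 18 include Atp6v1g3 (-0.28), Atp6v0d2 (0.02) and Atp6v1c2 (-0.18), which chose the cells, so their count is not free of the selection. Over all 4757 genes 2394 were above and 2363 below, with a median of 0.00. Atp6v1g3 had 12145 ± 2574 CPM (SD, n = 2) in saline and 10323 ± 738 CPM (SD, n = 3) in FMT libraries. Slc26a4 had 349 ± 422 and 362 ± 259.8 CPM, a spread that covers the difference. Hmx2, which helped to choose the cells, is given by its levels alone, 358 and 309.7 against 157, 265 and 151 CPM. Regulators and receptors were above 0 for 4 of 13 (median -0.30) and respiratory chain genes of the nucleus for 10 of 40 (median -0.09). Those 13 regulators and receptors include Foxi1 and Hmx2, which also chose the cells.

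Lists of other cells and stimuli had medians further from 0. Of 16 proximal tubule genes 12 were above 0, with a median of 0.60, and without the 43 cells that carried proximal tubule or immune UMIs, 3 of 9 were above, with a median of -0.23. UMIs of Slc34a1, Lrp2, Cubn and Slc5a12, members of this list, helped to pick the cells removed. A fall in the list was thus partly fixed in advance, and the 9 genes are not the same set as the 16. All 4 haemoglobin-related genes tested were below 0, with a median of -3.51. The 6 listed erythroid genes, which include them, summed to 7447 CPM in Saline 1 and 5.82 to 898 CPM elsewhere. Immediate early genes were above 0 for 2 of 10 (median -0.34), glucocorticoid and circadian genes for 3 of 10 (median -0.45) and interferon response genes for 4 of 4 (median 0.45). No gene of any list passed the threshold.

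Whether FMT differed from saline otherwise in intercalated than in distal convoluted and thick ascending limb cells was tested with an interaction term and the library as a block. It called 0 of 8068 genes (0%) in edgeR, with 298 at an unadjusted p under 0.05. Without Saline 1 it called 21, without Saline 2 29 and without FMT 1 3 genes, and without FMT 2 or FMT 3 it called 0. Dusp1, an immediate early phosphatase, had a log2 difference of -1.28 in intercalated cells and 0.91 in distal cells, a difference between them of -2.24 (SE 0.48, adjusted p = 0.56 in edgeR). Its intercalated levels were 26.9 and 41.2 CPM in saline and 32.0, 0 and 9.04 CPM in FMT libraries, from 42 UMIs in all. Distal levels were 82.8 and 116 against 317, 35.9 and 192 CPM, so the groups overlapped in both classes.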

How the data were processed

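Kidney droplet libraries (2 Saline, 3 FMT; 10x Genomics, per the labels) were read as raw UMI counts per gene and barcode, as the authors deposited them. The build was mm10 and the software Cell Ranger 2.1.1, per the submitters' processing notes, but Cell Ranger 4.0.0 per the file headers. The table holds 27998 genes, of which 65 symbols repeat. Gene positions came from GENCODE M21, a mm10 annotation. The members and the gene lists were chosen with earlier results of these data known. No clustering was used. Distal convoluted and thick ascending limb cells had at least 2 UMIs of Slc12a3 or Slc12a1, and proximal tubule cells at least 3 of Slc34a1, Lrp2, Cubn and Slc5a12. Principal cells had at least 2 of Aqp2 and Aqp3, and fewer than 3 of those proximal tubule genes. Proximal tubule and principal cells had fewer than 2 UMIs of Slc12a3 and Slc12a1. All these classes also had to have no Ptprc UMI and fewer than 2 UMIs of Atp6v1g3 and Atp6v0d2. Doublets were scored with Scrublet in scanpy 1.11.5 and kept in the main analysis.

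UMIs were summed over the intercalated cells of each library, since cells are not replicates, and tested with edgeR 4.0.16 (quasi-likelihood, TMM, its low count filter by group, Benjamini-Hochberg at 0.05) in R 4.3.3. DESeq2 1.42.0 was an alternative. Shares were tested with two-sided exact permutation tests. Log2 ratios described without a test are of CPM + 10. The edgeR script was tested on simulated data: at 4-fold changes 5.19% of its calls were false. Named genes were the 5 smallest p-values per direction at a mean of at least 30 CPM where fewer than 5 were called, the 15 largest lowest ratios against other cells at 50 CPM or more, and 10 genes per type at 100 CPM or more. A few genes that these rules take are not reported here. Members of the gene lists could be named anywhere, and genes outside this were chosen after their values were seen. Mitochondrial UMIs are part of the CPM totals.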

Additional observations from a re-analysis of the deposited data

How the results depend on the processing

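Of 9 named FMT differences under 141 alternatives in all, 137 kept their sign and their side of the threshold, and the other 4 passed it without the low count filter. Log2 differences ran from 0.90 to 4.12 for Akr1c21, 1.30 to 3.03 for G6pc, 0.41 to 1.30 for Plin2, -2.17 to -0.38 for Sgk1 and -1.31 to -0.14 for Malat1. The count of FMT calls, 0, became 40 of 13462 genes without that filter and 1 with the replicate block, and stayed 0 under the other scaling, cell and leave-one-out alternatives. Deviations of same-numbered libraries from their group means had r of -0.07 and 0.06 over genes. With 2 saline libraries, the deviations of 1 mirror those of the other. These values therefore cannot decide whether the numbers mark pairs. The interaction count, 0, became 33 without the filter and 0 to 29 without single libraries. The difference in the share of intercalated cells (FMT minus saline, -0.24 percentage points) became 0.56 with distal cells as the denominator and -1.85 to 0.57 without single libraries. That of the type B share, 5.37 points, ran from -6.15 (without Saline 1) to 16.9. The count of genes that separate type A from type B, 144, ran from 148 to 269 when a library was left out (269 without Saline 1, 220 without FMT 1, 226 without FMT 3). Without Saline 1 or FMT 3 only 1 library was left for the same-direction rule, so those counts are not a like measure. With 2 UMIs to type a cell no library had 10 cells of each type, so there is no value. The 53 genes higher than in other cells became 29 in cells of 1% or more mitochondrial UMIs. The causes were not tested. Where 1 saline library was left out, the lone one was assumed to vary like the FMT libraries. FMT 2 was left out of the FMT fit of cells of 1% or more mitochondrial UMIs, which then used 4 libraries. Of the 670 cells, 310 had no typing gene.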
